A study of Mus musculus with 15 samples.

Results

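The enzymes that make serine and move its carbon onto folate were followed as transcripts across the 4 groups of a bulk RNA-seq experiment. They were taken by gene symbol: *Phgdh*, *Psat1* and *Psph* of serine synthesis, the serine hydroxymethyltransferases *Shmt1* and *Shmt2*, and *Mthfd1*, *Mthfd1l*, *Mthfd2* and *Aldh1l2*, which act on folate-bound carbon. Each symbol had 1 entry, which gave 9 of the 54390 genes in the count tables, and all 9 were among the 14237 genes with enough counts to be tested. The cells were BV2, an immortalized mouse microglial line used as a macrophage model. WT and Trem2-/- cells were each left in media alone, which is called non-foamy, or given 20 µg/mL soluble cholesterol overnight, which is called foamy. Of WT cells there were 4 non-foamy and 4 foamy samples, and of Trem2-/- cells 3 non-foamy and 4 foamy ones.

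Several features of this model bear on the values. According to the methods, the Trem2-/- cells came from Cas9-BV2 cells, themselves 1 clone, and were isolated again as single clones by limiting dilution. The number of Trem2-/- clones behind the libraries and whether the WT cells carried Cas9 are not given in the sources used here, so genotype and clone cannot be told apart. The cholesterol was delivered with methyl-beta-cyclodextrin and the non-foamy cells had media alone, so cholesterol and carrier cannot be told apart either. The culture medium was supplemented with non-essential amino acids, a mixture that holds serine and glycine. The labels do not say that the samples of a group were separate cultures, so p-values measure only the spread between these samples, which may be technical. In bulk RNA, a change in the share of cells that make a transcript and a change in the amount per cell cannot be told apart.

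The libraries held 23538963 to 41683825 counted reads. *Trem2*, the targeted gene, was still counted in the Trem2-/- libraries. Its level was 222 CPM ± 8.79 (SD, 3 libraries) against 354 ± 41.2 (SD, 4 libraries) in WT without cholesterol, and 224 ± 4.56 against 373 ± 26.4 (4 libraries each) with it, where CPM is counts scaled to library size with TMM factors. These values are RNA. The paper reports, by flow cytometry, that Trem2 protein was knocked out in its Trem2-/- BV2 cells treated with cholesterol. Of 10 markers of microglia and macrophages, 9 had a mean of at least 1 CPM over all libraries, and *Cx3cr1* did not. *Cx3cr1* averaged 1.54 CPM in WT non-foamy, 1.02 in WT foamy, 0.30 in Trem2-/- non-foamy and 0.51 in Trem2-/- foamy cells. It was the 1 marker called lower in Trem2-/- cells under both treatments, while 7 of the 10 were called higher. Over all tested genes, 43.6% were called without and 30.2% with cholesterol. Summed, the 10 markers reached 3846 to 4718 CPM in WT non-foamy and 4164 to 4741 in WT foamy libraries. The sum was 5766 to 6024 in Trem2-/- non-foamy and 5882 to 6163 in Trem2-/- foamy libraries, and the part of this difference in the results was not tested. Markers of astrocytes, neurons, lymphocytes, fibroblasts and epithelium had no gene with a mean of at least 1 CPM, whereas *Kdr* of endothelium did. *Kdr* was lower in Trem2-/- cells (log2 fold change −2.01 without and −0.83 with cholesterol, adjusted p = 4.64e-08 and 0.00096). The 4 endothelial markers summed to 7.04 to 9.88 CPM in WT non-foamy, 4.64 to 8.79 in WT foamy, 1.91 to 2.65 in Trem2-/- non-foamy and 3.75 to 4.42 in Trem2-/- foamy libraries, with *Cdh5* and *Tek* at or near 0 throughout. Mitochondrial genes took 5.83% to 8.05% of the counts, most in Trem2-/- foamy replicate 4, WT non-foamy replicate 3 and WT foamy replicate 3.

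Cells draw serine from the medium or make it from a glycolytic intermediate. PHGDH oxidizes phosphoglycerate, PSAT1 transfers an amino group to the product and PSPH removes the phosphate to leave serine. SHMT1 in the cytosol and SHMT2 in mitochondria then split serine into glycine and a carbon unit that stays on tetrahydrofolate. MTHFD2 and MTHFD1L turn that unit into formate in mitochondria, MTHFD1 takes up formate in the cytosol, and ALDH1L2 oxidizes the mitochondrial formyl unit to carbon dioxide. The carried carbon is used for purines, thymidylate and methyl groups, so the pathway is best known from dividing cells, and several of its genes are textbook targets of the stress-induced transcription factor ATF4.

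Because the 9 genes moved together with genotype, the DNA before their start sites was read for motifs. RefSeq promoters of GRCm38.p6, from 250 bases before to 50 bases after the start, were available for 8 of the 9 genes, with 9 promoters among them. The core letters of the element bound by ATF4, TGATGNAA, were in none of these 9 promoters and in 3.97% of all 32851 promoters, counted on both strands. The E-box CACGTG, which MYC binds, was likewise in none of the 9 and in 7.15% of all. TGACGTNA, close to the cAMP response element, was in the *Mthfd1l* promoter alone and in 2.93% of all. The general promoter elements CCAAT and GGGCGG, which were added after the expression values were seen, were in promoters of 6 and 5 of the 8 genes, against 41.1% and 38.2% of all 27025 genes with a promoter. No match says only that these letters are not in this window.

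The stretches below belong to the genes on which the comparisons turn, *Psat1* and *Mthfd2*, which were called in both the WT response to cholesterol and the difference of responses, and *Mthfd1l*, the sole holder of the response-element letters. All are on the strand of the gene, 5′ to 3′, and capitals mark CCAAT or its reverse complement in the *Mthfd2* stretch and the upstream *Psat1* stretch, GGGCGG in the other *Psat1* stretch, and the reverse complement of TGACGTNA in *Mthfd1l*. The *Psat1* and *Mthfd2* start sites lie inside the genes as GENCODE draws them.
*Psat1*, upstream start, chr19:15925060-15925209, minus strand: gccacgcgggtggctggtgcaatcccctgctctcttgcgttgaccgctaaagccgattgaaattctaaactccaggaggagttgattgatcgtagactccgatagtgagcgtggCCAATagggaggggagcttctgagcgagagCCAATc
*Psat1*, downstream start, chr19:15924623-15924772, minus strand: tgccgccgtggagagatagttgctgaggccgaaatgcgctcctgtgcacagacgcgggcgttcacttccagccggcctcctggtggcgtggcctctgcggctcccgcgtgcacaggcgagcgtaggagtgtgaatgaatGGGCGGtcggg
*Mthfd2*, chr6:83317607-83317754, minus strand: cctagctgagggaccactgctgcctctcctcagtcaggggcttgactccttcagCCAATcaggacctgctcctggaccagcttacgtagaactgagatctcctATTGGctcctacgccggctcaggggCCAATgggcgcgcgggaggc
*Mthfd1l*, chr10:3973015-3973074, plus strand: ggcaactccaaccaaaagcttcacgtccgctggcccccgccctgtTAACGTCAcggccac

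The 9 transcripts differed widely in level. Exonic length was taken as all bases in any annotated exon of the gene, so values per kilobase depend on the annotation. Per kilobase of this length, WT non-foamy cells held most *Phgdh* (123 CPM per kb ± 6.91, SD, n = 4) and *Psat1* (103 CPM per kb ± 3.52), followed by *Shmt2* at 53.6 CPM per kb. *Mthfd1l* (20.0), *Mthfd1* (19.0), *Mthfd2* (17.5) and *Shmt1* (12.5 CPM per kb) formed a middle range, and *Aldh1l2* (2.67) and *Psph* (2.48 CPM per kb) were lowest. The first and last enzymes of serine synthesis therefore lay at opposite ends of this order. Without division by length, *Psat1* (438 CPM) stood above *Phgdh* (306 CPM) in the same cells. Summed over the 9 genes, *Phgdh* took 34.8% ± 0.588 and *Psat1* 29.2% ± 2.24 of the per-kb signal in WT non-foamy cells. *Mthfd2* took 4.94% ± 0.241 there and 2.89% ± 0.406 (SD, n = 3) in Trem2-/- non-foamy cells, and the shares of the libraries did not overlap.

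**Figure D1:**
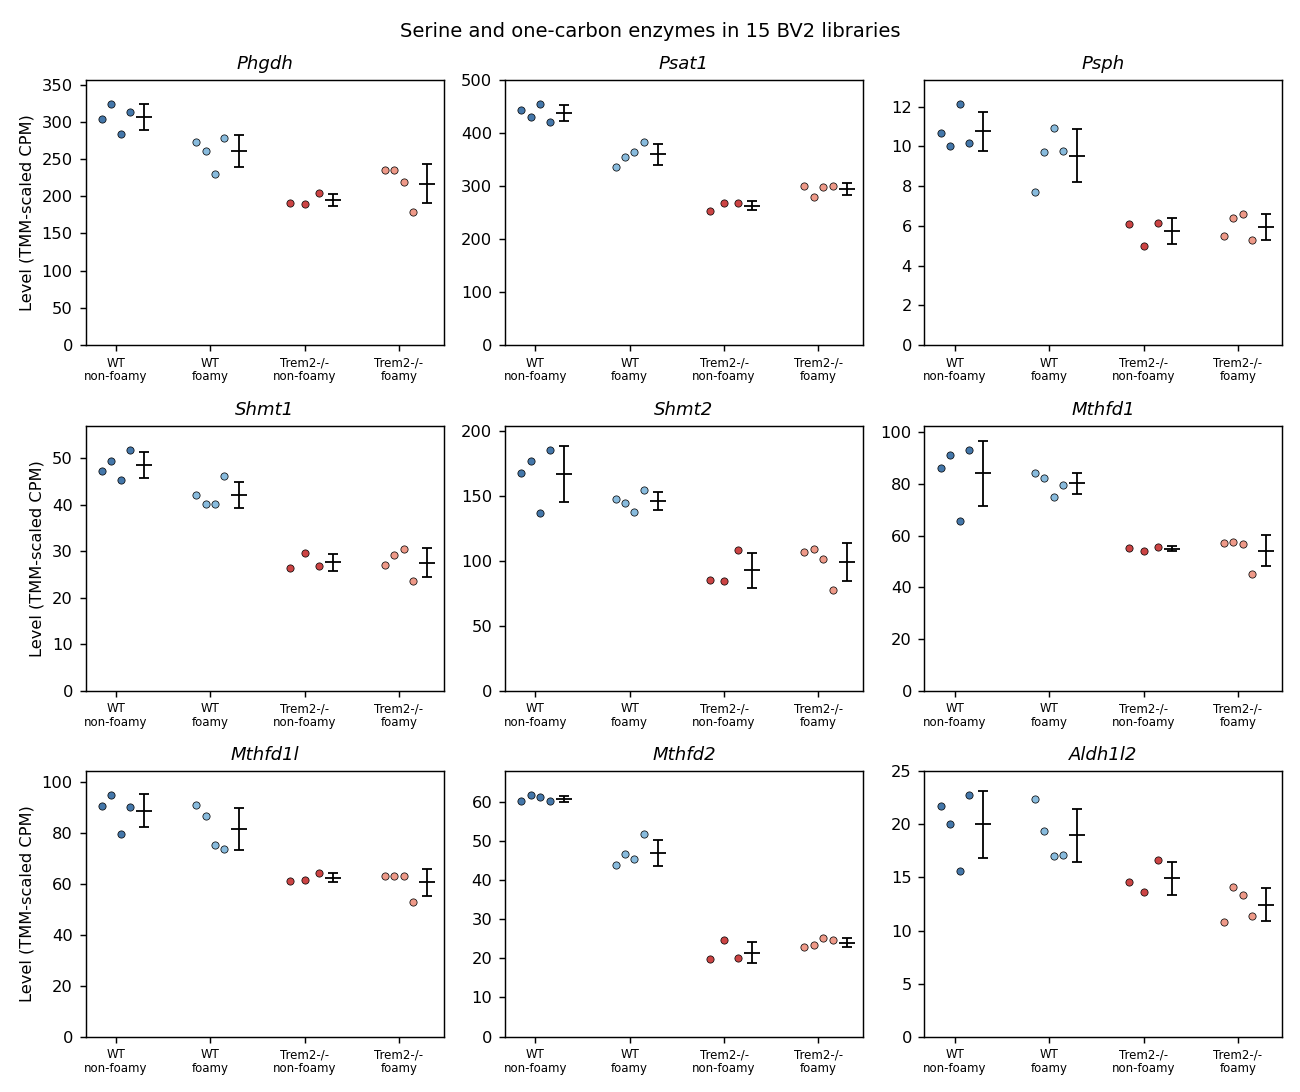
TMM-scaled CPM of the 9 enzymes (vertical axes, each starting at 0) in every library (points) of the 4 groups, with the group mean and SD. Every gene has its highest mean in WT non-foamy cells and its next highest in WT foamy cells, and for 7 genes all 8 WT libraries lie above all 7 Trem2-/- libraries.

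The order of the group means was alike across the genes. All 9 were highest in WT non-foamy cells and next highest in WT foamy cells, whereas the lowest mean was in Trem2-/- non-foamy cells for 5 genes and in Trem2-/- foamy cells for 4. For 7 genes each of the 8 WT libraries lay above each of the 7 Trem2-/- libraries, which was so for 10.7% of all tested genes. *Phgdh* and *Aldh1l2* were the exceptions.

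To test what differed between the genotypes without cholesterol, Trem2-/- non-foamy cells were compared with WT non-foamy cells. All 9 enzymes were lower in Trem2-/- cells with an adjusted p under 0.05 in edgeR's quasi-likelihood test over all tested genes. This was a broad comparison, in which 43.6% of all tested genes were called and 22.6% were called lower. The median log2 fold change of the 9 was −0.73, against 0.02 for all tested genes. For 8 of the 9 the libraries of the genotypes did not overlap, which held in this direction for 23.5% of all tested genes.

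The transcripts of serine synthesis were lower for each of its steps. *Phgdh* (chromosome 3, 98313170 to 98339990, minus strand, GRCm38 here and for the genes that follow) was counted at 304, 324, 284 and 313 CPM in the WT non-foamy libraries and at 190, 190 and 205 CPM in the Trem2-/- ones. The sets were well apart, and the log2 fold change was −0.65 ± 0.09 (s.e., adjusted p = 2e-06). Of its 50-base transcript stretches 47.8% also occur in transcripts of other genes. The partners that shared most were *Gm7901*, *Gm9347*, *Gm8341*, *Gm7669*, *Gm13337* and *Gm5847*, and each held at most 0.836% as many counts as *Phgdh*. How reads that match several places were counted is not given in the sources used here. These low counts therefore do not show whether *Phgdh* lost reads, and the effect on its level was not tested.

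*Psat1* (chromosome 19, 15904678 to 15947337, minus strand), the transaminase, was counted at 444, 431, 456 and 421 CPM in WT non-foamy libraries and at 253, 269 and 268 CPM in Trem2-/- ones. Replicates lay close together in both genotypes. Its log2 fold change was −0.73 ± 0.06 (s.e., adjusted p = 2.89e-09). *Psph* (chromosome 5, 129765558 to 129787449, minus strand), the phosphatase of the last step, was far less abundant, at 10.02 to 12.15 CPM in WT and 4.98 to 6.12 CPM in Trem2-/- non-foamy cells. It fell by 0.90 on the log2 scale (s.e. 0.13, adjusted p = 9.39e-06). Exons of *Cct6a*, on the other strand, cover 10.4% of its exonic bases. *Cct6a* had 3765% to 7006% as many counts and was itself lower in Trem2-/- cells (log2 fold change −0.43, adjusted p = 8.38e-06), and since strand is not stated, their reads in that overlap cannot be told apart.

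The serine hydroxymethyltransferases were lower by like amounts. *Shmt2* (chromosome 10, 127517123 to 127522444, minus strand), the mitochondrial enzyme, was counted at 167, 177, 137 and 185 CPM in WT non-foamy libraries and at 85.3, 84.5 and 108 CPM in Trem2-/- ones. WT replicate 3 was the lowest of its group and Trem2-/- replicate 3 the highest of its own, but the sets did not overlap. The log2 fold change was −0.85 ± 0.11 (s.e., adjusted p = 1.86e-06). *Shmt1* (chromosome 11, 60788104 to 60811718, minus strand), the cytosolic enzyme, lay at 45.3 to 51.8 CPM in WT and 26.4 to 29.6 CPM in Trem2-/- libraries, which gave −0.81 ± 0.09 on the log2 scale (s.e., adjusted p = 8.72e-08). Exons of *Smcr8* cover 4.74% of its exonic bases. *Smcr8* had 133% to 318% as many counts and was higher in Trem2-/- cells (log2 fold change 0.23, adjusted p = 0.0303).

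Among the enzymes of folate-bound carbon, *Mthfd2* (chromosome 6, 83305691 to 83325908, minus strand) had the largest difference of the 9. It was counted at 60.1, 61.6, 61.3 and 60.3 CPM in WT non-foamy libraries and at 19.8, 24.6 and 20.0 CPM in Trem2-/- ones. The WT libraries were nearly the same, and each held more than any Trem2-/- library did by a wide margin. The log2 fold change was −1.51 ± 0.08 (s.e., adjusted p = 3.16e-12). *Mthfd1* (chromosome 12, 76255298 to 76319803, plus strand), the trifunctional cytosolic enzyme, was at 84.2 CPM ± 12.6 in WT and 55.0 CPM ± 0.852 in Trem2-/- cells, or −0.62 ± 0.10 on the log2 scale (s.e., adjusted p = 2.1e-05). *Mthfd1l* (chromosome 10, 3973118 to 4167081, plus strand), the mitochondrial formate-releasing enzyme, fell by 0.51 (s.e. 0.08, adjusted p = 2.83e-05).

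*Aldh1l2* (chromosome 10, 83487450 to 83534140, minus strand), which drains formyl units inside mitochondria, had the smallest difference. It was counted at 21.7, 20.0, 15.6 and 22.7 CPM in WT non-foamy libraries and at 14.6, 13.6 and 16.6 CPM in Trem2-/- ones. WT replicate 3 lay within the range of the Trem2-/- libraries. The log2 fold change was −0.43 ± 0.13 (s.e., adjusted p = 0.00982), and without Trem2-/- non-foamy replicate 2 the adjusted p was 0.0576. *D10Wsu102e* overlaps 14.1% of its exonic bases, had 339% to 683% as many counts, and differed by −0.03 between these genotypes (adjusted p = 0.807).

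**Figure D2:**
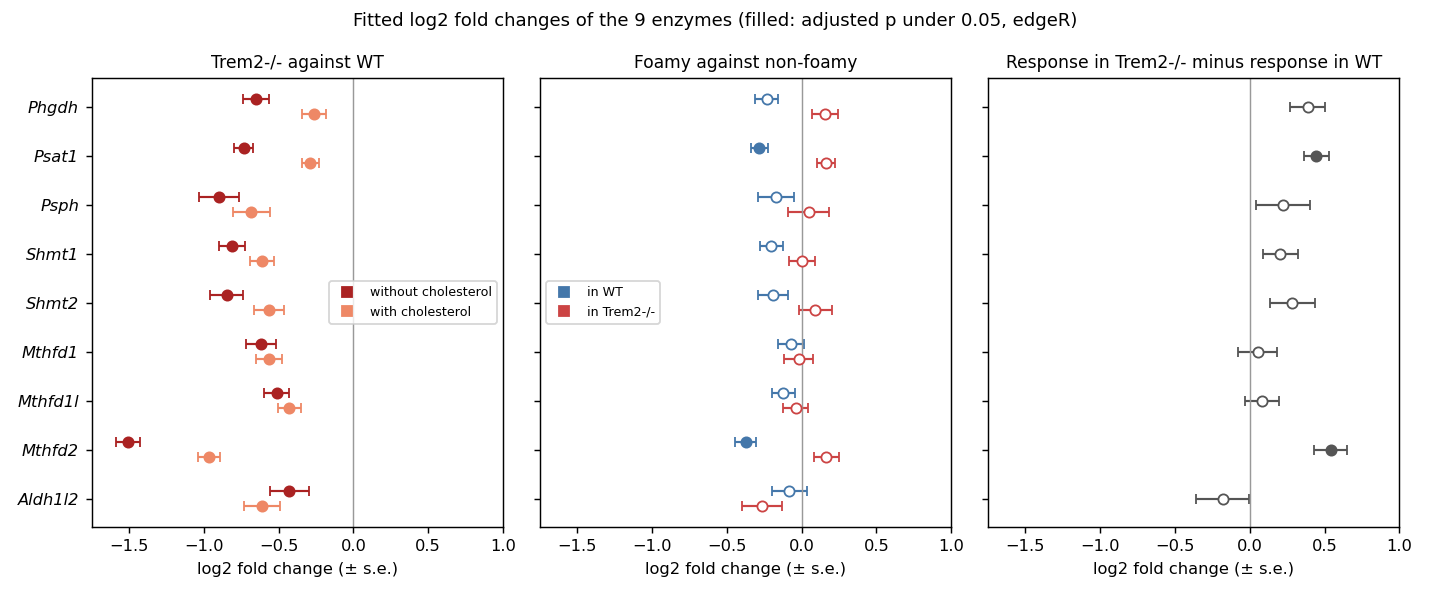
Fitted log2 fold change (horizontal axis, ± s.e.) of the 9 enzymes for Trem2-/- against WT (left), foamy against non-foamy (middle) and the difference of the responses (right), where filled points have an adjusted p under 0.05 in edgeR. All points on the left are filled and below 0, while *Psat1* and *Mthfd2* are the filled ones in the WT response and in the difference.

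The same contrast was then made in cholesterol-loaded cells. All 9 enzymes were again called lower in Trem2-/- cells, where 30.2% of all tested genes were called and 15.9% were called lower. The median log2 fold change of the 9 was −0.56, against 0.00 for all tested genes. *Mthfd2* again had the largest difference, at 44.0, 46.6, 45.4 and 51.8 CPM in WT foamy libraries and 22.8, 23.5, 25.1 and 24.8 CPM in Trem2-/- foamy ones. The log2 fold change was −0.97 ± 0.07 (s.e., adjusted p = 2.05e-09).

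Next came *Psph* (−0.68 ± 0.12, s.e., adjusted p = 0.00018), *Shmt1* (−0.61 ± 0.08, adjusted p = 3.88e-06), *Aldh1l2* (−0.61 ± 0.12, adjusted p = 0.000466), *Shmt2* (−0.56 ± 0.10, adjusted p = 0.000196) and *Mthfd1* (−0.56 ± 0.09, adjusted p = 4.84e-05). *Mthfd1l* fell by 0.43 (s.e. 0.08, adjusted p = 0.00017). The sets of libraries did not overlap for these 6 genes, which held in this direction for 15% of all tested genes. *Shmt2* lay at 147, 144, 138 and 154 CPM in WT foamy libraries and at 107, 109, 101.6 and 77.3 CPM in Trem2-/- foamy ones, where replicate 4 was lowest.

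The first enzymes of serine synthesis had the smallest genotype differences in foamy cells. *Psat1* was counted at 337, 355, 364 and 385 CPM in WT foamy libraries and at 301, 279, 299 and 300 CPM in Trem2-/- foamy ones, with no overlap, and its log2 fold change was −0.29 ± 0.06 (s.e., adjusted p = 0.00044). *Phgdh* was counted at 273, 261, 230 and 278 CPM in WT foamy libraries and at 235, 235, 220 and 178 CPM in Trem2-/- foamy ones. Here WT replicate 3 fell below the 2 highest Trem2-/- libraries. The log2 fold change was −0.26 ± 0.08 (s.e., adjusted p = 0.0142), and the call was lost without Trem2-/- foamy replicate 4 (adjusted p = 0.0586) or without WT foamy replicate 4 (adjusted p = 0.0523).

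The response to cholesterol was compared within each genotype. In WT cells, *Psat1* and *Mthfd2* fell, and no member rose, in a comparison in which 2.8% of all tested genes were called and 1.14% were called lower. *Psat1* went from 438 CPM ± 14.96 (SD, n = 4) in non-foamy to 360 CPM ± 19.9 (SD, n = 4) in foamy WT cells, which was −0.28 ± 0.06 on the log2 scale (s.e., adjusted p = 0.00661). *Mthfd2* went from 60.9 CPM ± 0.760 to 46.9 CPM ± 3.42, which was −0.37 ± 0.07 on the log2 scale (s.e., adjusted p = 0.00491). Neither gene's libraries overlapped between the treatments. When spread was estimated from the WT libraries alone, *Psat1* had an adjusted p of 0.0505, and neither gene passed a test for a change beyond 1.2-fold.

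The other 7 enzymes had log2 fold changes from −0.23 to −0.07 in WT cells and did not pass the test, so that all 9 values were below 0. *Phgdh* (−0.23 ± 0.08, s.e., adjusted p = 0.115) did not overlap between treatments, which was so in this direction for 5.16% of all tested genes. It was called by DESeq2 (adjusted p = 0.0498) and with no filter on low counts (adjusted p = 0.0316). *Shmt1* (−0.20, adjusted p = 0.175) and *Shmt2* (−0.19, adjusted p = 0.357) overlapped in at least 1 library, as did *Psph*, *Mthfd1l*, *Mthfd1* and *Aldh1l2*.

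In Trem2-/- cells no member was called after cholesterol by edgeR, and 0.14% of all tested genes were. At an unadjusted p under 0.05 there was 1 member, *Psat1*, and DESeq2 also called 0, with 1 at an unadjusted p under 0.05. *Psat1* went from 264 CPM ± 9.19 (SD, n = 3) to 295 CPM ± 10.4 (SD, n = 4), and all Trem2-/- foamy libraries lay above the non-foamy ones, which was so for 5.38% of all tested genes. Its log2 fold change was 0.16 ± 0.06 (s.e., adjusted p = 0.687). *Mthfd2* was at 21.4 CPM ± 2.71 and 24.0 CPM ± 1.09 (0.17, adjusted p = 0.784), and *Phgdh* at 195 CPM ± 8.35 and 217 CPM ± 26.8 (0.15, adjusted p = 0.815). The remaining values ran from −0.26 for *Aldh1l2* (adjusted p = 0.785) to 0.09 for *Shmt2*, and *Shmt1* was at 27.6 CPM in both groups.

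Whether the genotypes responded differently was tested by the difference of the responses, in which 3.64% of all tested genes were called and 1.99% were called higher. *Psat1* (0.44 ± 0.08, s.e., adjusted p = 0.00407) and *Mthfd2* (0.54 ± 0.11, s.e., adjusted p = 0.00721) were called, both with a more positive response in Trem2-/- cells. They had fallen in WT cells and had fitted values above 0 in Trem2-/- cells. *Phgdh* had a difference of 0.39 ± 0.12 (s.e., adjusted p = 0.0636), and *Shmt2* one of 0.28 (adjusted p = 0.341).

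The libraries with the highest mitochondrial shares were the lowest of their group in the mean over the 9 genes, on a log2 scale centred on each gene: 0.28 in WT non-foamy replicate 3, 0.15 in WT foamy replicate 3 and −0.50 in Trem2-/- foamy replicate 4. The part of this share in the results was not tested beyond leaving those 3 libraries out. Without them, all 9 genes were still called lower in Trem2-/- cells under both treatments, and 4 genes in place of 2 were called in the difference of responses, with *Phgdh* (0.45, adjusted p = 0.00131) and *Shmt2* (0.44, adjusted p = 0.0147) added. *Phgdh* was also called in the WT response there (−0.21, adjusted p = 0.0395).

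Ratios between partner enzymes of the compartments were taken within each library, as CPM per kb, and so did not depend on library scaling. In WT cells *Mthfd2* over *Mthfd1* was 0.940 ± 0.168 (SD over 4 libraries) without cholesterol and 0.747 ± 0.0703 with it. In Trem2-/- cells it was 0.497 ± 0.0704 (SD over 3 libraries) without and 0.572 ± 0.0864 (SD over 4 libraries) with cholesterol. The lowest WT non-foamy library (0.823) lay above the highest Trem2-/- non-foamy one (0.579), whereas the foamy sets met, with 0.666 the lowest in WT and 0.696 the highest in Trem2-/- cells. *Shmt2* over *Shmt1* was 4.28 ± 0.346, 4.33 ± 0.134, 4.21 ± 0.754 and 4.46 ± 0.409 in the same order, and the ranges of the libraries overlapped between all groups. *Mthfd1l* over *Mthfd1* had group means from 1.02 to 1.14. Its foamy libraries did not overlap, at 0.930 to 1.082 in WT and 1.104 to 1.166 in Trem2-/- cells, whereas the non-foamy ones did, since WT non-foamy replicate 3 (1.21) was the highest of all. None of these ratios was tested.

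**Figure D3:**
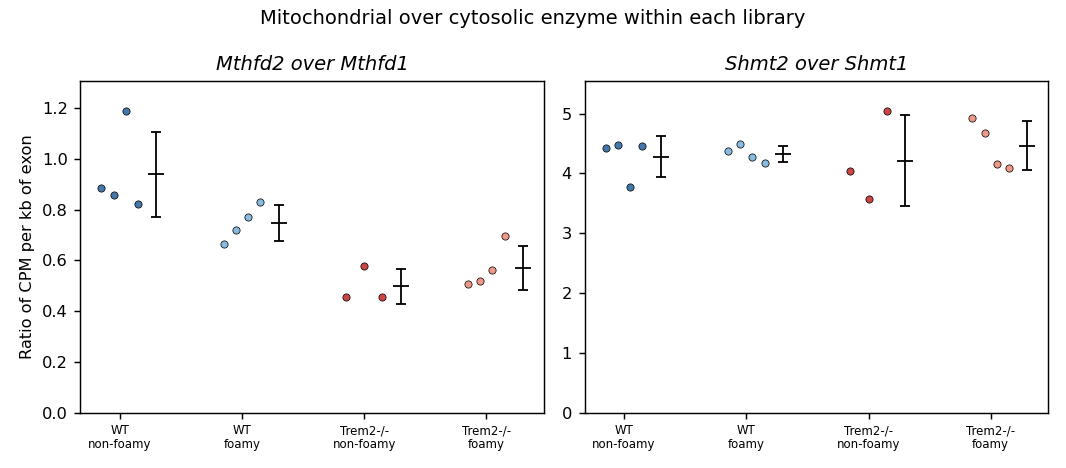
Ratios of CPM per kb between partner enzymes in each library (points) with the group mean and SD, for the 4 groups. *Mthfd2* over *Mthfd1* has a mean of 0.940 in WT non-foamy and 0.497 in Trem2-/- non-foamy cells, while *Shmt2* over *Shmt1* stays between 4.21 and 4.46.

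Connected pathways were described from lists of genes, leaving out the 9 enzymes. The counts of each list stand beside the shares over all tested genes. Without cholesterol 43.6% of these were called and 22.6% were called lower, and with it 30.2% and 15.9%. Without cholesterol, 6 of 13 tested genes of other folate enzymes and transporters were lower in Trem2-/- cells and 3 were higher. *Tyms*, which spends the carbon on thymidylate, had a log2 fold change of −1.23 (adjusted p = 3.39e-10). *Fpgs*, which retains folate in the cell, was lower (−0.84), and *Ggh*, which reverses that step, was higher (0.79, adjusted p = 1.57e-06). With cholesterol 4 were lower and 3 higher, with *Tyms* at −0.72.

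De novo purine synthesis, which takes up formyl units, had 9 of 13 tested genes lower and 1 higher under both treatments. *Gart*, which uses the first formyl unit, was at −1.002 (adjusted p = 2.31e-08) without and −0.67 with cholesterol, and *Atic*, which uses the second, at −0.45 (adjusted p = 5.12e-06) and −0.34. *Impdh2*, of guanine nucleotide synthesis, was the gene that was higher (0.18 and 0.20). In the glycine cleavage system *Gcsh* was lower under both treatments (−0.70 and −0.27) and *Dld* without cholesterol (−0.19), of 4 genes tested. The other genes, *Gldc* and *Amt*, were not called and were scarce. Their group means ran from 0.41 to 0.80 CPM for *Gldc* and from 0.90 to 1.65 CPM for *Amt*.

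Serine carriers were lower in 5 of 7 tested genes without cholesterol, with *Sfxn3* higher (0.50, adjusted p = 3.07e-06). They were lower in 2 of 7 with cholesterol, *Slc1a4* (−1.01) and *Slc38a1* (−0.30). Of all tested genes, 22.6% were called lower without and 15.9% with cholesterol, so a smaller number with cholesterol was seen over all genes too. Whether the carriers differed from all genes in this was not tested. The methionine cycle had 4 of 7 lower and 2 higher without cholesterol, among them *Mat2a*, which makes the methyl donor (−0.48, adjusted p = 7.15e-06). Glycolysis up to phosphoglycerate, the source of the carbon, was split, with 4 of 11 lower and 5 higher without cholesterol and 3 lower and 6 higher with it. Other enzymes that use serine or glycine were split too, at 2 lower and 3 higher of 9 under both treatments.

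Genes of ATF4 and the amino acid response did not move in a single direction. Of 16 tested, 6 were lower and 6 higher in Trem2-/- cells without cholesterol, and 5 were lower and 5 higher with it. Among all tested genes 43.6% were called without and 30.2% with cholesterol. *Asns*, which makes asparagine, was lower (−0.99, adjusted p = 1.75e-10), as were *Slc7a5*, a carrier of large neutral amino acids (−1.33), and *Atf4* itself (−0.37, adjusted p = 3.57e-05). *Ddit3* (0.998), *Atf3* (0.96) and *Atf5* (0.91), all transcription factors of the stress response, were higher. Of 4 tested regulators named for the pathway, *Trp53* was lower without (−0.46) and with cholesterol (−0.43), *Atf4* was lower with cholesterol too (−0.23, adjusted p = 0.00314), and *Tfam* was lower without it (−0.27). *Myc* was not tested, at 0 to 16 counts per library, and *Mycn* had 0 counts in every library.

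All 15 proliferation genes were lower in Trem2-/- cells under both treatments, with a median log2 fold change of −0.97 without and −0.65 with cholesterol. *Mcm2*, of the replicative helicase, was at −1.55 and −1.27, and *Rrm2*, of ribonucleotide reductase, at −1.67 and −1.18. The enzymes' lower level thus stood beside lower transcripts of DNA replication and division in the same libraries, and the part of proliferation in the enzymes' values was not tested.

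**Figure D4:**
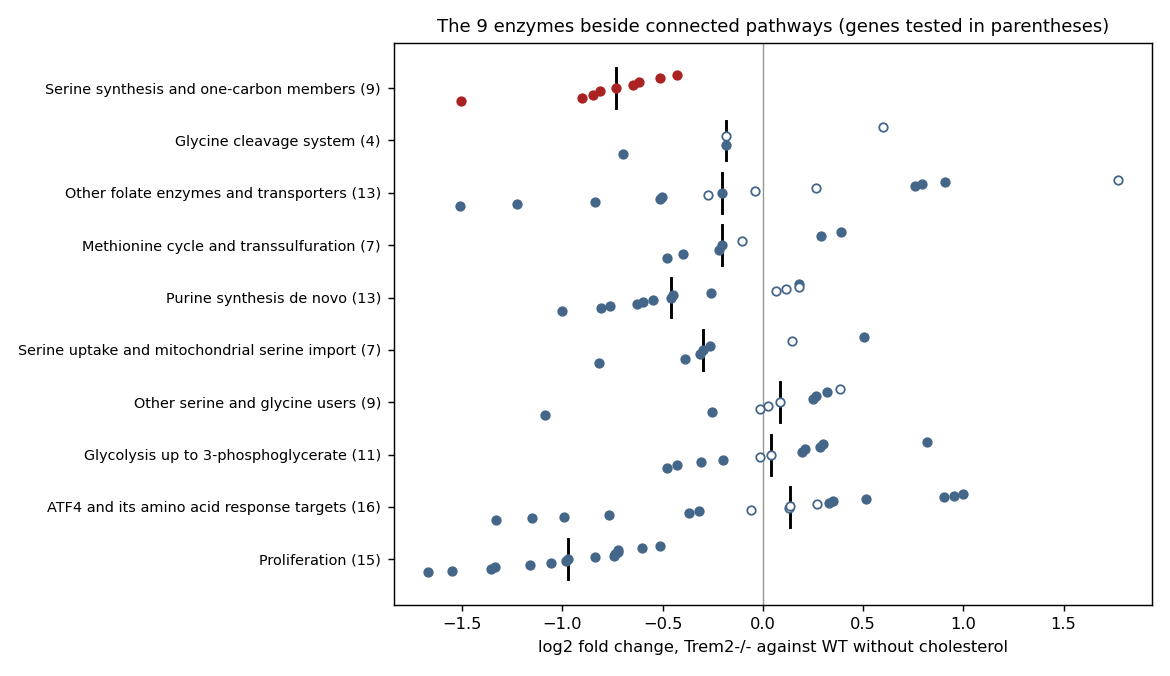
Fitted log2 fold change (horizontal axis) of each tested gene (points) of the 9 enzymes and the connected lists for Trem2-/- against WT without cholesterol, with a vertical bar at each list's median and filled points where the adjusted p in edgeR was under 0.05. The enzymes and proliferation lie wholly below 0, with 9 and 15 genes called lower, purine synthesis has 9 lower and 1 higher, and the ATF4 list has 6 lower and 6 higher.

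Over the lists together, with the 9 enzymes left out, cholesterol called 11 of 98 genes in WT cells, 9 lower and 2 higher. Of all tested genes 2.8% were called there. Among the lower ones were *Gcsh* (−0.26, adjusted p = 0.0341), *Prps1* (−0.26, adjusted p = 0.0347), *Asns* (−0.34, adjusted p = 0.00336) and 5 proliferation genes, and *Atf3* (0.36, adjusted p = 0.00222) and *Sfxn3* (0.25, adjusted p = 0.0384) were higher. In Trem2-/- cells edgeR and DESeq2 called 0 of the 98, with 10 and 13 at an unadjusted p under 0.05. The difference of the responses was called for 10 of the 98, and for 3.64% of all tested genes. Of the 10, 8 had a more positive response in Trem2-/- cells. Among these were 4 proliferation genes, *Tyms* (0.50, adjusted p = 0.0219) and *Gcsh* (0.43, adjusted p = 0.0147).

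The genes whose pattern over the 15 libraries was most like the mean of the 9 enzymes, among those with a mean of at least 10 CPM, were *G3bp1*, *Mybl2* and *Rcc1* (r = 0.992 each), *Olfm1* (r = 0.991) and *Ccnd1* (r = 0.989). The points share libraries and fall into genotypes, so these values are descriptions. Within the set, *Psat1* and *Mthfd2* were each other's nearest member (r = 0.968), as were *Mthfd1* and *Mthfd1l* (r = 0.964). *Psat1* and *Aldh1l2* were the least alike pair (r = 0.632). *Mthfd2* was nearest to *Psat1* among members and to *Ptges3* among other genes (r = 0.994), and *Psat1* to *Ccl3* (r = 0.991).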

How the data were processed

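RNA from BV2 cells was sequenced in 15 libraries of 4 groups. The CHURP pipeline that the authors ran uses Trimmomatic for trimming, HISAT2 for alignment (GRCm38) and featureCounts for counting, and the labels name mm10. The deposited values were raw read counts per gene, in 1 table per library, without normalization. The strand setting is not given in the sources used here. Depth was 23538963 to 41683825 counts per library, so that the scarcest of the 9 genes still had at least 138 counts in each library.

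Counts of all 15 libraries were scaled with TMM factors (0.918 to 1.11), filtered with filterByExpr (minimum count 10), and fitted in edgeR 4.0.16 (R 4.3.3), giving each group its own mean, with the quasi-likelihood test (glmQLFit, glmQLFTest). P-values were adjusted by the Benjamini-Hochberg method over 14237 genes, and a gene was called at an adjusted p under 0.05. The biological coefficient of variation was 10.2%, and s.e. is the size of the log2 fold change divided by the square root of F. The steps were tested on simulated data.

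The 9 enzymes and the lists of connected genes and markers were chosen with earlier results of these data known. All 9 enzymes were named, other list genes beside their list's count, and likeness was ranked by Pearson r. Alternatives were DESeq2 1.42.0, RLE factors, library totals alone, no filter, at least 10 counts in every library, the compared groups alone, a replicate block, a minimum fold change of 1.2, leaving out each library in turn and, chosen after seeing the data, leaving out the 3 libraries with the highest mitochondrial share. Exons and shared 50-base stretches came from GENCODE M21 (GRCm38) and promoters from RefSeq. Some genes of the lists are not reported here by name.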

Additional observations from a re-analysis of the deposited data

Results flagged for a closer look

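*Psat1* in Trem2-/- foamy replicate 2 was at 279 CPM, set apart below the other replicates at 299 to 301 CPM. *Mthfd1* in Trem2-/- foamy replicate 4 was at 45.3 CPM, with the others at 56.7 to 57.5 CPM, and *Mthfd1l* in the same library was at 52.8 CPM, with the others at 63.2 to 63.3 CPM. That library had the highest share of mitochondrial counts, 8.05%. These were 3 of 27 groups of 4 libraries examined, groups that share libraries, and chance sets apart about 1 group in 20 under the 95% critical values used.

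The response to cholesterol differed between the genotypes for *Psat1* (0.44 on the log2 scale; adjusted p = 0.00407) and *Mthfd2* (0.54; adjusted p = 0.00721), tested by the difference of the responses in edgeR. For both, the WT foamy libraries lay below the WT non-foamy ones, and for *Psat1* the Trem2-/- foamy libraries lay above the Trem2-/- non-foamy ones.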

How the results depend on the processing

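All 9 enzymes stayed below 0 in Trem2-/- cells under every alternative run, in both treatments, although some calls were lost. Of 9 calls without cholesterol, *Aldh1l2* was lost with a minimum fold change of 1.2, and of 9 with cholesterol *Phgdh*, *Psat1* and *Mthfd1l* were. In the WT response, 2 members called lower became 1 with the compared groups alone and 0 with the minimum fold change, and 3 with DESeq2, with no filter and without the 3 libraries of highest mitochondrial share, each time by adding *Phgdh*. In the difference, 2 called higher became 0 with the minimum fold change and 4 without those 3 libraries. *Phgdh* was called in the difference by DESeq2 (adjusted p = 0.021), with no filter (0.00866), without Trem2-/- foamy replicate 4 (0.00843) and without WT non-foamy replicate 3 (0.0341). The cause of these changes was not tested, beyond the smaller number of samples or the stricter null that an alternative is built on.

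The response in Trem2-/- cells changed sign for values near 0. *Shmt1* went from 0.000617 to −0.000212 with DESeq2, −0.000666 with RLE factors, −0.00103 with at least 10 counts in every library, −0.00267 with the compared groups alone and −0.00313 with the replicate block. Leaving out 1 library gave −0.0527 to 0.0670 for *Shmt1*, −0.0427 to 0.0961 for *Psph*, −0.0477 to 0.0562 for *Mthfd1* and −0.0616 to 0.0195 for *Mthfd1l*. Without the 3 libraries of highest mitochondrial share, *Mthfd1* was 0.0580 and *Mthfd1l* 0.0213. *Mthfd1* in the difference ran from −0.00042 to 0.152 when 1 library was left out. None of these values had an adjusted p under 0.05.

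Library totals alone shifted the median of all genes by −0.14 without and −0.13 with cholesterol in Trem2-/- against WT, and split the calls over all genes into 1820 higher and 4379 lower, from 2985 and 3222, and into 1115 and 3666, from 2036 and 2261. With these totals each of the 9 enzymes lay further below 0 than that shift, the nearest being *Phgdh* with cholesterol at −0.39. In the WT response the split went from 237 higher and 162 lower to 179 and 249, and to 425 and 456 with DESeq2. Replicate numbers are shared by the groups. Libraries of the same number had deviations that correlated by −0.11 to 0.30, over 0.1 in 2 of 14 pairs. Of 15 libraries, 4 correlated best with their own number. The numbers thus showed no clear pairing, although such correlations cannot exclude one. With the replicate block, the counts of called members stayed 2, 0, 9, 9 and 2, and calls over all genes in the difference went from 518 to 294. Counts of *Psph* and *Aldh1l2* are the lowest, and their standard errors (0.12 to 0.14, and 0.18 in the difference) limit what could be called.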
